A study of Mus musculus with 12 samples.

Results

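The Lce (late cornified envelope) and Sprr (small proline-rich) genes are 2 families of the epidermal differentiation complex on mouse chromosome 3. Members were taken as every listed gene whose symbol starts with Lce or Sprr followed by a digit. This gave 29 of the 14533 genes in the counts table: 14 Lce1 genes, 4 Lce3 genes, Lce6a, 2 Sprr1 genes, 7 Sprr2 genes and Sprr4. They lie between positions 92285304 and 93019060 of chromosome 3 in mm10. The RefSeq annotation of GRCm38.p6 lists 38 genes of these families, and the other 9 (Sprr2a1, Sprr2a2, Sprr2b, Sprr2c-ps, Sprr2j-ps, Sprr2k, Sprr3, Lce3a and Lce3b) were not analysed here.

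RNA from scraped, snap-frozen epidermis of untreated C57BL/6 mice was sequenced, with 1 library per mouse. The 6 Pparg-/-epi mice carried floxed Pparg alleles and Cre recombinase driven by the keratin 14 promoter, which is active in basal keratinocytes and in the skin appendages that arise from them. The 6 WT mice were siblings with both floxed Pparg alleles and no Cre, so the floxed alleles are shared by both groups. The skin was dorsal and non-lesional, and the scraping reached the superficial dermis. There were 3 female and 3 male WT mice and 4 female and 2 male Pparg-/-epi mice, and the labels give ages from 8 to 13 weeks in both groups. Some of these ages differ from those in the study's own list of mice. Total counts ranged from 10120840 to 18851255 per library. Counts of Pparg itself ranged from 5 to 269 among WT mice and 16 to 107 among Pparg-/-epi mice, and since excision leaves a shortened transcript by the study's account, they do not check the genotype. In bulk tissue, fewer cells of a type and less RNA per cell cannot be told apart.

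Corneocytes, the dead cells of the skin surface, are enclosed by a cornified envelope, a layer of proteins that transglutaminases cross-link beneath the former plasma membrane. The Sprr and Lce proteins are built into this envelope late in keratinocyte differentiation. Lce1 genes are expressed in normal skin, whereas Lce3 genes and several Sprr genes are known for their induction in injured or inflamed epidermis. PPARγ, the protein that Pparg encodes, is a nuclear receptor known for its role in sebocytes and adipocytes.

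Members resemble each other in sequence, and the authors removed reads that mapped to several places, so it matters which genes could lose reads. Of the 75-base stretches (1 read length) in the GENCODE M21 transcripts, between 28.0% and 45.6% in the 4 Lce3 genes also occurred in another gene. In Lce1 this share was between 0% and 13.5%, and in Lce1m it was 0%. In Sprr2 it was highest for Sprr2a3, at 47.5%, all shared with Sprr2a1 and Sprr2a2. There were 8 members with no shared stretch, among them Sprr1a, Sprr1b, Sprr2h and Lce1m. The shares are over all annotated transcript sequence, which for Sprr2a3 is longer than the gene as counted, so they describe similarity and do not bound the reads lost. The following coding stretch of Lce3c is shown because 6 Lce3 genes hold it unchanged, Lce3a and Lce3b among them. A read that lies wholly within it cannot be assigned by its own bases, without the other read of its pair.
Lce3c (chr3:92945408-92945482, plus strand): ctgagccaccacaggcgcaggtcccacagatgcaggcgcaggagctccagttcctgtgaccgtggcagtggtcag

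A promoter entry, the bases before the RefSeq start, was found for 27 of the 29 members (not for Sprr2g or Lce1f). Windows of 200 bases before the start are shown for Sprr genes and of 60 bases for Lce genes, 5′ to 3′ on the gene's own strand in GRCm38.p6. Capitals mark the letters TGANTCA, the AP-1 motif that Fos and Jun proteins bind. They also mark the octamer motif of POU factors, ATTTGCAT. Close to the start they mark the core promoter letters TATAAA. In Lce genes they mark ATAAAA as well. Sprr2d and Sprr2h are shown as the Sprr2 genes with the highest fold change and the highest level, and Sprr1b and Sprr1a as the pair of Sprr1 genes. Lce1g and Lce1h are shown as near-identical windows whose genes had different fold changes. Lce1m is shown as the most abundant Lce1 gene in WT mice, and Lce3c as the most abundant Lce3 gene.
Sprr2d (chr3:92338940-92339139, plus strand): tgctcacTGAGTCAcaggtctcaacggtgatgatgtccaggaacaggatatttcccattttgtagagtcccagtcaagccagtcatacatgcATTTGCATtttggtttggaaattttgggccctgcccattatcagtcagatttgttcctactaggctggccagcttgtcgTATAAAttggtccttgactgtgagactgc
Sprr2h (chr3:92385485-92385684, plus strand): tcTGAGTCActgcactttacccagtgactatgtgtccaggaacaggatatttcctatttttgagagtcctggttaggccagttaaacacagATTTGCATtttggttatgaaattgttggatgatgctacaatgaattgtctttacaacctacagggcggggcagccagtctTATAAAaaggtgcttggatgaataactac
Sprr1b (chr3:92438780-92438979, minus strand): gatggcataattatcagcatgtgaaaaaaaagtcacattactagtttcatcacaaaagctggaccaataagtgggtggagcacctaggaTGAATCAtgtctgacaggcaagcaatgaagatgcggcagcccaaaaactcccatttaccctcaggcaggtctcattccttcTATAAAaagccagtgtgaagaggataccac
Sprr1a (chr3:92485882-92486081, minus strand): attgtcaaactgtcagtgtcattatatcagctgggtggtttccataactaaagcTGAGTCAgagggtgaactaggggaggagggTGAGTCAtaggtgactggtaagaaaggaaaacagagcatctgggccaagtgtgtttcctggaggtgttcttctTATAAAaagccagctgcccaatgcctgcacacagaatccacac
Lce1g (chr3:92752339-92752398, minus strand): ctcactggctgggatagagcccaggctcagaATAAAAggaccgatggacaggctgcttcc
Lce1h (chr3:92765066-92765125, minus strand): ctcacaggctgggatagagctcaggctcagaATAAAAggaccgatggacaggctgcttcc
Lce1m (chr3:93019062-93019121, minus strand): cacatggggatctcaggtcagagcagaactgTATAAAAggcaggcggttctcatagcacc
Lce3c (chr3:92944426-92944485, plus strand): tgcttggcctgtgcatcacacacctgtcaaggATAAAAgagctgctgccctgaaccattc

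Motifs were searched on both strands in the 250 bases before the start. TGANTCA was found in 7 of 27 members, namely 5 of 6 Sprr2 genes and 2 of 2 Sprr1 genes, and in 6.75% of 32851 promoters of the same length. In the 5 Sprr2 genes it began 193 to 198 bases before the start, and these genes also held ATTTGCAT 108 to 112 bases before the start. ATTTGCAT was in 1.6% of all promoters. TATAAA was in 11 of 27 members and 12.4% of all promoters, and it stood 29 bases before the start in 5 Sprr2 genes. ATAAAA, searched after the sequences had been seen, was in 12 of 13 Lce1 and 4 of 4 Lce3 promoters and in 17% of all promoters. It overlaps TATAAA where another A follows. The antioxidant response letters TGACNNNGC were in 7 of 27 members, 3 of 4 Lce3 genes among them, and in 10.2% of all promoters. They overlap TGANTCA in Sprr1a. GCGTG, the core of the aryl hydrocarbon receptor site, was in 3 of 27 members and 28.2% of all promoters. A PPAR direct repeat (AGGTCA, any 1 base, AGGTCA) and the GRHL site AACCGGTT matched in no member window, and in 0.0335% and 0.116% of all promoters. These are matches of letters, and no binding was measured here.

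Levels are given as CPM, counts scaled by the TMM method to a common library total, as the lowest, median and highest of 6 mice. Genes are called altered where edgeR's quasi-likelihood test gave an adjusted p under 0.05 (Benjamini-Hochberg over all 14533 genes) and the log2 fold change (log2FC, Pparg-/-epi over WT) was 0.6 or more in size. Of the 29 members, 19 were altered, all of them higher in Pparg-/-epi mice, where 5.19% of all genes were altered upward and 10.3% in either direction. In the quasi-likelihood test, the likelihood ratio test and DESeq2, 0 members were altered downward, where 5.08% of all genes were in the first of these. In the likelihood ratio test 20 members were altered upward, as were 6.07% of all genes, and 5.71% of all genes were altered downward. At an unadjusted p under 0.05, 1 member was lower (Lce1m) and 22 were higher. The share of all genes at that unadjusted limit is not given here, so these 2 counts have no base to be read against. In 11 members every Pparg-/-epi library lay above every WT library, as in 3.95% of all genes. The median log2FC was 1.69 over the members and -0.01 over all genes. These counts are a description, since the table lists only genes above 0.5 CPM in at least 6 libraries. In 9 members (6 Sprr2 and 3 Lce3 genes) fewer than 6 WT libraries were above 0.5 CPM, and these passed that limit only because the Pparg-/-epi libraries count too.

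**Figure D1:**
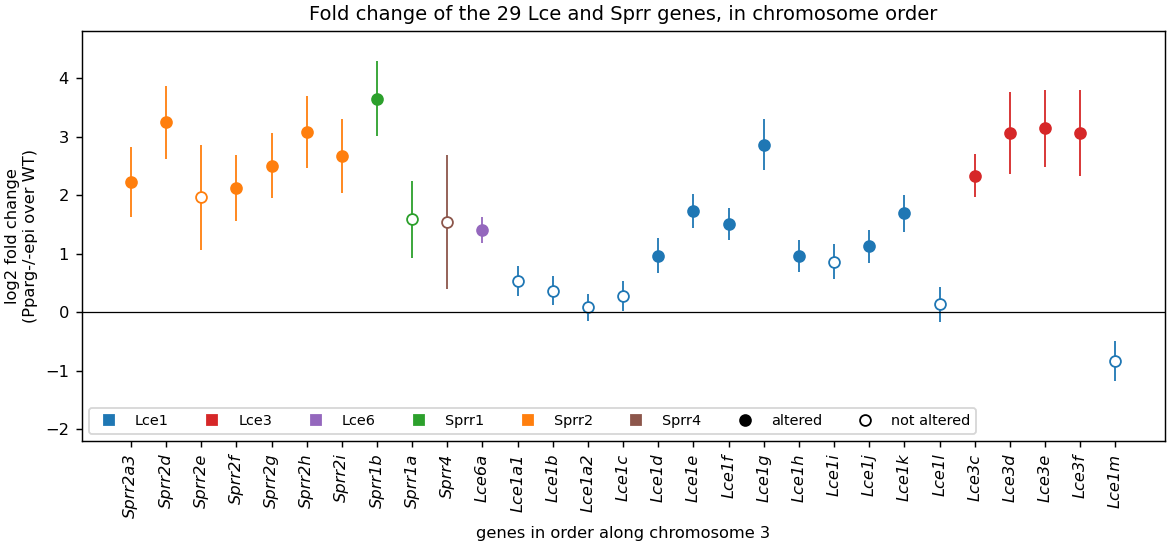
Log2 fold change (Pparg-/-epi over WT, n = 6 mice in each group) of the 29 members in their order along chromosome 3, with bars for the standard error. Filled points are altered and open points are not. The Sprr genes at the left and the Lce3 genes at the right lie at 1.54 or above, while the 13 Lce1 genes between them run from 2.86 (Lce1g) down to 0.09 (Lce1a2), and Lce1m at the far right is at -0.83.

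The Sprr2 genes encode short proline-rich proteins that act as cross-bridges in the envelope, and 6 of the 7 were altered upward. Sprr2h (chr3:92385685-92387319) had the highest level of them per length, with a WT median of 8.40 CPM per kb. It was between 1.08 and 19.2 CPM in WT mice (median 6.28) and between 42.6 and 92.0 CPM in Pparg-/-epi mice (median 53.6). The groups did not overlap, with a log2FC of 3.08 (SE 0.61, adjusted p = 0.00522). Sprr2d (chr3:92339140-92340873) was between 0.336 and 4.48 CPM in WT mice (median 0.615) and between 8.25 and 24.0 CPM in Pparg-/-epi mice (median 12.0). Its log2FC of 3.24 (SE 0.63, adjusted p = 0.00482) was the highest of Sprr2, and its groups did not overlap either.

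Sprr2e (chr3:92352143-92353449) was the Sprr2 gene that was not altered. It was between 0.0531 and 4.58 CPM in WT mice (median 0.241) and between 2.06 and 6.55 CPM in Pparg-/-epi mice (median 2.69), with a log2FC of 1.96 (SE 0.90, adjusted p = 0.164). The overlap came from WT replicate 3 alone, at 4.58 CPM, while the other WT mice were at or below 0.511 CPM. Without that mouse the log2FC was 3.92 (SE 0.61, adjusted p = 0.0023). The mouse was singled out by its value, so this adjusted p is not a test of the rise. WT replicate 3 was also the highest WT mouse for Sprr2d, Sprr2f, Sprr2g, Sprr2h and Sprr2i. In their 200-base windows Sprr2d and Sprr2e differed at 16 positions.

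The remaining Sprr2 genes were scarce in WT mice. Sprr2a3, Sprr2f, Sprr2g and Sprr2i had WT medians from 0.186 to 1.79 CPM and Pparg-/-epi medians from 1.36 to 8.87 CPM. Their log2FC ran from 2.12 (Sprr2f) to 2.67 (Sprr2i), and the groups overlapped in each. Sprr2i had 0 to 6 counts per WT library, so its fold rests on few reads. The call for Sprr2f was lost without WT replicate 4, 5 or 6 or Pparg-/-epi replicate 7 (adjusted p between 0.0507 and 0.058). The call for Sprr2a3 was lost without WT replicate 4 or 6 or Pparg-/-epi replicate 9 (adjusted p between 0.0533 and 0.0641).

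Sprr1b (cornifin B, chr3:92436809-92438779) had the highest log2FC of all members, 3.65 (SE 0.64, adjusted p = 0.00286). It was between 1.61 and 28.6 CPM in WT mice (median 5.30) and between 83.2 and 173 CPM in Pparg-/-epi mice (median 121). Every Pparg-/-epi mouse was above every WT mouse, and the call held with any 1 library left out.

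Sprr1a (cornifin A, chr3:92483954-92485881) was the more abundant Sprr1 gene in every library. It was between 85.0 and 1484 CPM in WT mice (median 148) and between 752 and 1339 CPM in Pparg-/-epi mice (median 1127). The overlap came from WT replicate 2, the mouse at 1484 CPM, as the other WT mice were at or below 208 CPM. With all mice the log2FC was 1.58 (SE 0.66, adjusted p = 0.129), and without WT replicate 2 it was 2.97 (SE 0.25, adjusted p = 2.41e-05). Sprr4 (chr3:92500263-92500493) had the same pattern, between 2.77 and 615 CPM in WT mice (median 8.58) and between 188 and 391 CPM in Pparg-/-epi mice (median 338). WT replicate 2 was again the highest of all 12 mice and the next WT mouse was at 24.5 CPM. The log2FC of Sprr4 was 1.54 (SE 1.14, adjusted p = 0.407) with all mice and 5.00 (SE 0.52, adjusted p = 8.28e-05) without WT replicate 2. For both genes this mouse was singled out by its values, so the adjusted p without it is not a test of the rise. Sprr1b was at 3.71 CPM in WT replicate 2, below the WT median. In the fit without that mouse 21 members were altered upward, where 8.97% of all genes were, and 0 downward, where 6.51% of all genes were in the quasi-likelihood test.

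**Figure D2:**
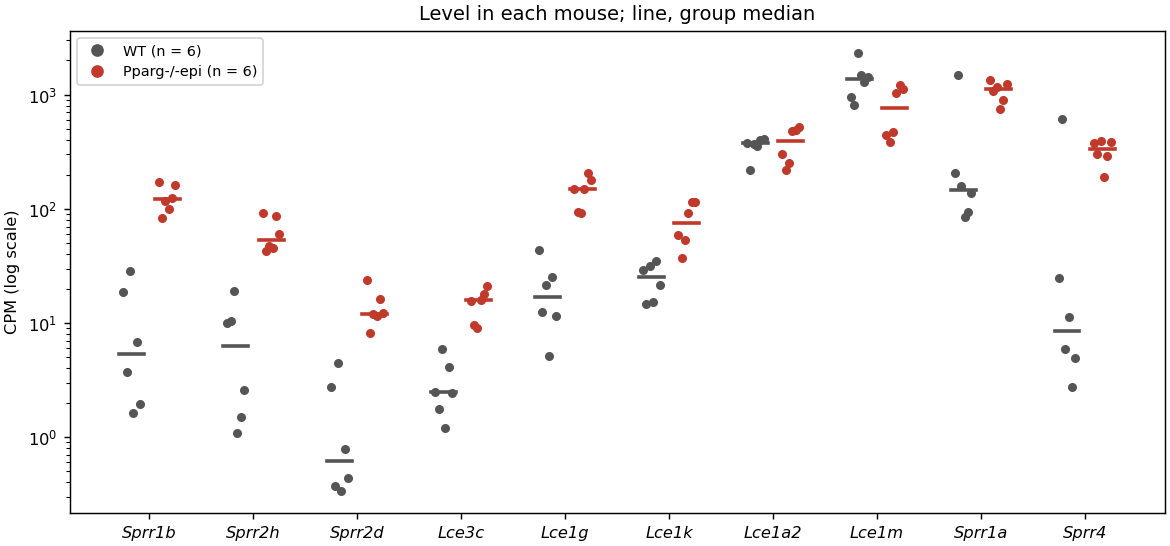
CPM on a log scale for 10 members, with 1 point per mouse (grey, WT, red, Pparg-/-epi, n = 6 each) and a line at the group median. Sprr1b, Sprr2h, Sprr2d, Lce3c, Lce1g and Lce1k do not overlap between groups, and the single high WT point in Sprr1a (1484 CPM) and Sprr4 (615 CPM) is WT replicate 2.

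All 4 Lce3 genes were altered upward. Lce3c (chr3:92944486-92945730) was the most abundant per length, with a WT median of 4.39 CPM per kb. It was between 1.21 and 5.97 CPM in WT mice (median 2.47) and between 9.08 and 21.2 CPM in Pparg-/-epi mice (median 15.8). The groups did not overlap, and its log2FC of 2.33 (SE 0.37, adjusted p = 0.00148) was the lowest of Lce3. Lce3e (chr3:92967061-92968281) had the highest, 3.14 (SE 0.66, adjusted p = 0.00723), from 0 to 1.28 CPM in WT mice (median 0.234) and from 1.82 to 4.98 CPM in Pparg-/-epi mice (median 2.71). Lce3d and Lce3f had a log2FC of 3.07 each, and Lce3d overlapped between groups because WT replicate 3 was at 2.45 CPM. Lce3d, Lce3e and Lce3f had at most 23 counts in any WT library, so their single folds rest on few reads. In addition, 28.0% or more of each Lce3 transcript is shared with other Lce3 genes. Reads removed for that reason can be missing from the Lce3 sum as well.

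The 14 Lce1 genes did not move as 1 group. Of them 7 were altered upward (Lce1d, Lce1e, Lce1f, Lce1g, Lce1h, Lce1j and Lce1k), and these lie in a row along the chromosome interrupted only by Lce1i. Lce1g (chr3:92750151-92752338) was between 5.18 and 43.5 CPM in WT mice (median 17) and between 92.1 and 205 CPM in Pparg-/-epi mice (median 150). With a log2FC of 2.86 (SE 0.43, adjusted p = 0.00117) it had the lowest adjusted p of all members, and its groups did not overlap. Lce1e, Lce1f and Lce1k also did not overlap, with a log2FC of 1.72, 1.51 and 1.69. Lce1h, whose 60-base window differs from that of Lce1g at 2 positions, had a log2FC of 0.96 (SE 0.27, adjusted p = 0.0318), and the difference between these folds was not tested.

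Calls near the threshold depended on single mice. Lce1d had a log2FC of 0.96 (SE 0.30, adjusted p = 0.0446). Its call was lost without WT replicate 3, 4 or 6 or Pparg-/-epi replicate 7, 10, 11 or 12 (adjusted p between 0.0725 and 0.0982). That of Lce1h was lost without WT replicate 4, 5 or 6 or Pparg-/-epi replicate 7, 10, 11 or 12 (adjusted p between 0.0505 and 0.0685). That of Lce1j (log2FC 1.12, adjusted p = 0.0203) was lost without WT replicate 4 (adjusted p = 0.0501). Lce1i was between 44.3 and 114 CPM in WT mice (median 94.4) and between 75.8 and 225 CPM in Pparg-/-epi mice (median 168). It was not altered (log2FC 0.86, SE 0.30, adjusted p = 0.0704) but was without Pparg-/-epi replicate 8 (adjusted p = 0.0328). It was also altered in the likelihood ratio test, with DESeq2, with total counts, with sex, RIN or name-number blocks as terms and among mice with name numbers from 222 on (adjusted p between 0.005 and 0.0465).

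The 6 Lce1 genes with the highest WT level per length were not altered. Lce1m (chr3:93017807-93019060), at the far end of the cluster, had the highest level of all members per length in WT mice, a median of 1554 CPM per kb. It was between 813 and 2317 CPM in WT mice (median 1362) and between 383 and 1207 CPM in Pparg-/-epi mice (median 760). It was the 1 member with a negative log2FC, -0.83 (SE 0.34, adjusted p = 0.125), and the groups overlapped. Lce1c was next in WT mice per length (707 CPM per kb), between 262 and 574 CPM in WT mice (median 512) and between 321 and 808 CPM in Pparg-/-epi mice (median 616), with a log2FC of 0.28 (SE 0.25, adjusted p = 0.517).

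Lce1a1, Lce1b, Lce1a2 and Lce1l were not altered either. Lce1a1 was between 260 and 580 CPM in WT mice (median 497) and between 393 and 944 CPM in Pparg-/-epi mice (median 699), with a log2FC of 0.54 (adjusted p = 0.175). Lce1b was between 237 and 452 CPM (median 417) and between 279 and 693 CPM (median 515), with a log2FC of 0.37 (adjusted p = 0.359). All of these groups overlapped. Lce1a2 was between 219 and 410 CPM (median 377) and between 219 and 521 CPM (median 391), and Lce1l between 82.5 and 212 CPM (median 194) and between 94.2 and 279 CPM (median 191). Their log2FC were 0.09 (SE 0.23, adjusted p = 0.851) and 0.13 (SE 0.31, adjusted p = 0.821). Over the 14 Lce1 genes, the log2FC ran against the mean WT level (Spearman rho -0.833, n = 14 genes) and against the mean Pparg-/-epi level (rho -0.64). The genes share the same 12 libraries, and the WT level enters the fold itself, so this is a description.

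Lce6a (chr3:92620085-92621660), the 1 Lce6 gene, was between 53.7 and 99.7 CPM in WT mice (median 67.7) and between 108 and 266 CPM in Pparg-/-epi mice (median 191). It rose without overlap, with a log2FC of 1.40 (SE 0.22, adjusted p = 0.00165).

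The share of each gene within the Lce1 counts of a library does not depend on the scaling between libraries. Lce1m made up between 25.1% and 47.5% of the Lce1 counts in WT mice (median 36.3%) and between 12.6% and 20.3% in Pparg-/-epi mice (median 17.5%), without overlap. Lce1g went the other way, from between 0.144% and 1.13% to between 2.64% and 4.24%. The shares of 7 Lce1 genes (Lce1e, Lce1f, Lce1g, Lce1h, Lce1i, Lce1j and Lce1k) were higher in every Pparg-/-epi mouse than in every WT mouse. Only the share of Lce1m was lower without overlap, and 6 genes overlapped. All shares in a library are parts of the same total, so a lower share of Lce1m by itself raises those of the other genes. A rise of the others likewise lowers that of Lce1m. The rising and falling shares are therefore not separate results, and in level neither Lce1m nor Lce1i was altered. The genes were singled out by these values, so the shares were not tested.

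**Figure D3:**
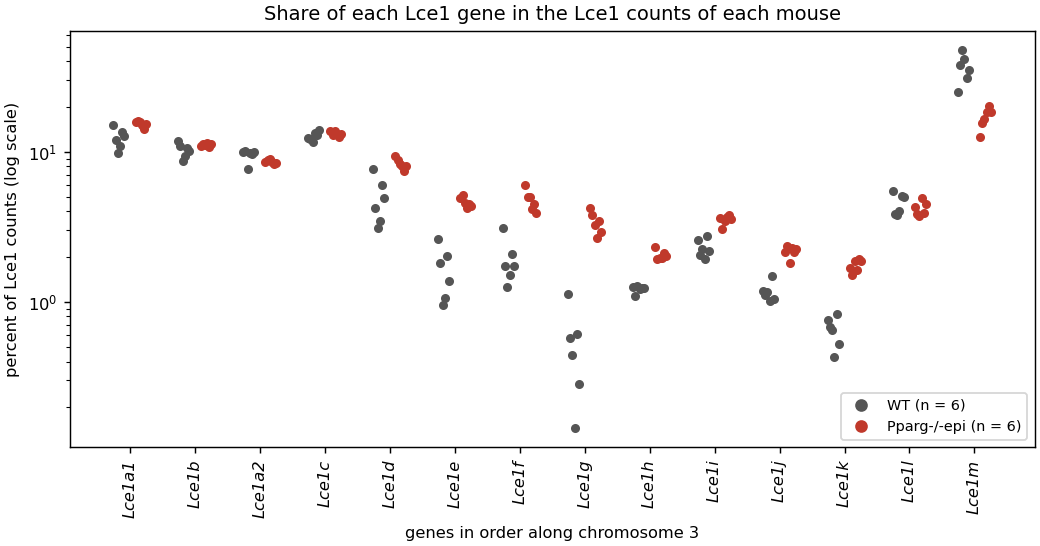
Percent of the Lce1 counts of each mouse (log scale) taken by each of the 14 Lce1 genes, in chromosome order, with 1 point per mouse (grey, WT, red, Pparg-/-epi, n = 6 each). The share of Lce1m has a median of 36.3% in WT and 17.5% in Pparg-/-epi mice, and the shares from Lce1e to Lce1k are higher without overlap.

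Subfamily sums do not depend on how the counted reads were split among the genes of a subfamily. They do not recover reads that were removed for mapping to several places. The Lce3 sum was between 1.41 and 11.1 CPM in WT mice (median 3.24) and between 15.0 and 37.3 CPM in Pparg-/-epi mice (median 27.4), with a log2FC of 2.58 (SE 0.44). The Sprr2 sum was between 3.56 and 36.1 CPM in WT mice (median 10.1) and between 63.1 and 147 CPM in Pparg-/-epi mice (median 85.6), with a log2FC of 2.86 (SE 0.48). Neither sum overlapped between groups. The Sprr1 sum overlapped through WT replicate 2 (1488 CPM), with a WT median of 163 CPM, a Pparg-/-epi median of 1228 CPM and a log2FC of 1.71 (SE 0.65), and of 3.02 without that mouse. The Lce1 sum was between 2161 and 4877 CPM in WT mice (median 3964) and between 2467 and 6154 CPM in Pparg-/-epi mice (median 4599). Its log2FC was 0.23 (SE 0.27), and 0.61 (SE 0.26) without Lce1m, and the groups overlapped in both. Without WT replicate 2, the lowest mouse, the log2FC of the Lce1 sum was 0.09. No p was computed for a sum.

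**Figure D4:**
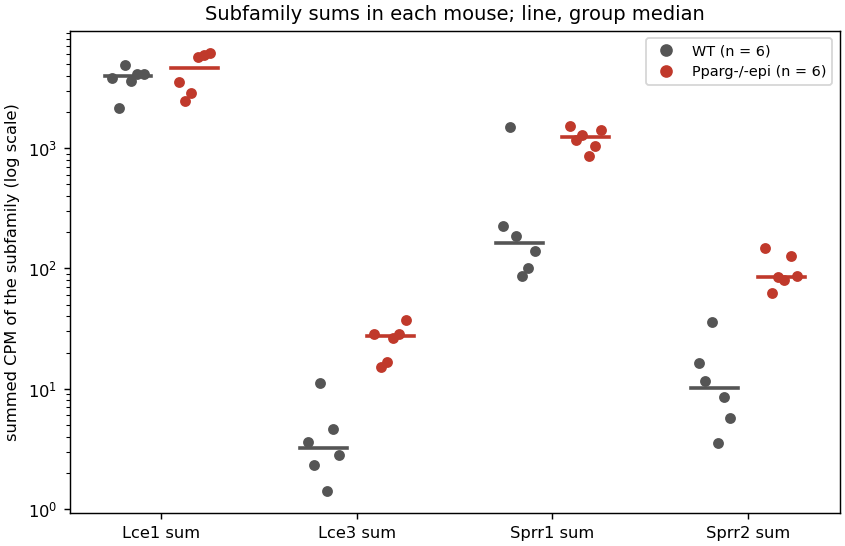
Summed CPM of the Lce1, Lce3, Sprr1 and Sprr2 genes (log scale), with 1 point per mouse (grey, WT, red, Pparg-/-epi, n = 6 each) and a line at the group median. The Lce3 and Sprr2 sums do not overlap between groups, while WT replicate 2 lies among the Pparg-/-epi mice in the Sprr1 sum.

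Relative to Lce1 in the same library, Lce3 and Sprr2 were higher in every Pparg-/-epi mouse than in every WT mouse. The log2 ratio of the Lce3 to the Lce1 sum was between -11.3 and -8.78 in WT mice and between -7.74 and -6.96 in Pparg-/-epi mice, a difference of 2.63. For Sprr2 to Lce1 it was between -9.98 and -7.08 in WT mice and between -6.15 and -4.58 in Pparg-/-epi mice, a difference of 3.01. The ratios of Sprr1 to Sprr2 and of Lce3 to Sprr2 overlapped, with differences of -0.66 and -0.38. Because 6 of the 7 Sprr2 and 3 of the 4 Lce3 genes, and no Lce1 gene, passed the 0.5 CPM limit only with the Pparg-/-epi libraries, these sums and ratios are a description.

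The Pparg-/-epi mice divided in their Lce1 genes along the number in the mouse names of the labels. Replicates 7 to 9 have name numbers 192 and 195, and replicates 10 to 12 have 222 and 225. The Lce1 sum was 3517, 2467 and 2853 CPM in the first 3 mice and 5680, 5953 and 6154 CPM in the others. In 16 of the 29 members (all 14 Lce1 genes, Lce6a and Lce3c) replicates 10 to 12 lay above replicates 7 to 9, as in 22.1% of all genes. The 10 Sprr genes each overlapped between these mice, and the mean Sprr2 sum of replicates 10 to 12 was 0.996 times that of replicates 7 to 9, against 2.01 times for the Lce1 sum. RNA integrity numbers (RIN), a measure of how intact the RNA was, were 8.6, 8.5 and 7.7 in replicates 7 to 9 and 7.7, 5.7 and 7.1 in replicates 10 to 12. The first 3 mice were female and 12, 13 and 13 weeks old, and the others were male, female and male and 8, 12 and 10 weeks old. Name number, RIN, sex and age cannot be told apart in these 6 mice.

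Of the WT mice only 1 has a name number below 222. Among the 5 WT and 3 Pparg-/-epi mice from 222 on, a setting chosen after seeing the data, 11 members were altered upward and 0 downward in the quasi-likelihood test. Of all genes 1.78% were altered upward and 1.88% downward in that fit of 8 mice. The calls of Sprr2a3, Sprr2d, Sprr2f, Sprr2g, Sprr2h, Sprr2i, Lce3d, Lce3e and Lce3f were lost (adjusted p between 0.0512 and 0.215), with a log2FC of 1.96 or more in each. The log2FC of the Lce1 sum was then 0.63, and that of the Sprr2 sum 2.91. With RIN as a covariate the log2FC of the Lce1 sum was 0.46, and 22 members were altered, with Sprr1a, Lce1a1 and Lce1i gained and 19 of the 19 kept. All were upward, as were 5.26% of all genes, and 4.45% of all genes were altered downward. With the name numbers as 2 blocks 18 members were altered upward, 17 of the 19 kept, where 3.99% of all genes were altered upward and 4.28% downward. That fit lost Sprr2a3 (adjusted p = 0.0552) and Lce1d (adjusted p = 0.057) and gained Lce1i (adjusted p = 0.0414).

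**Figure D5:**
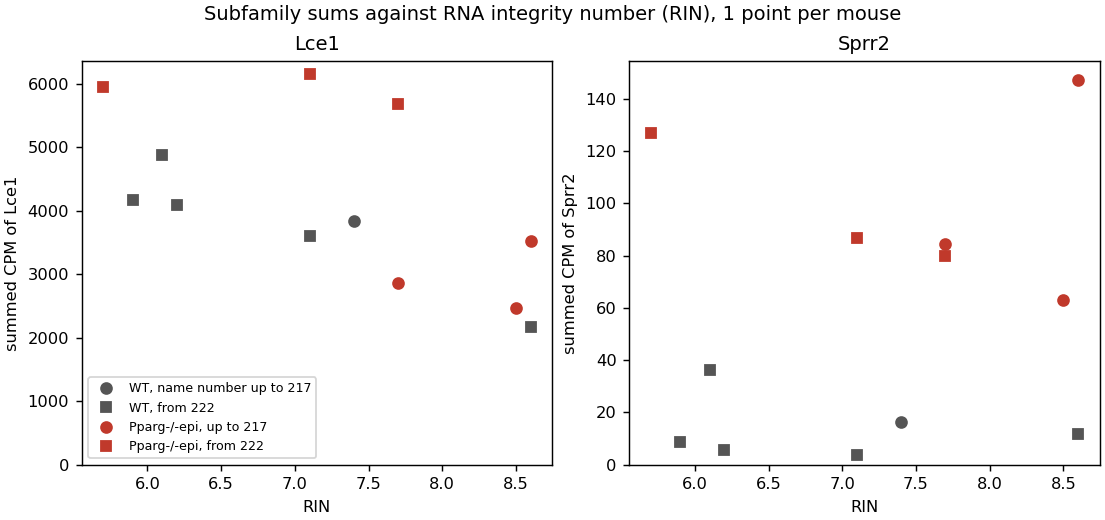
Summed CPM of Lce1 (left) and Sprr2 (right) against RIN, with 1 point per mouse (grey, WT, red, Pparg-/-epi, squares for name numbers from 222 on). The 3 Pparg-/-epi mice from 222 on lie between 5680 and 6154 CPM for Lce1, above all other mice, whereas for Sprr2 the 6 Pparg-/-epi mice lie above the 6 WT mice, whose highest is at 36.1 CPM.

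Of 27 other cornified envelope genes, 26 were listed. Among these 5 were altered upward (Ivl, Hrnr, Tgm3, Casp14 and Asprv1), where 5.19% of all genes were, and 21 were not altered. In the quasi-likelihood test 0 were altered downward, where 5.08% of all genes were (1 at an unadjusted p under 0.05 and 0 with DESeq2). The median log2FC of the 26 was 0.27, and 10 were higher at an unadjusted p under 0.05, a limit for which no share of all genes is given. Hrnr, a filaggrin-like protein, was between 177 and 732 CPM in WT mice (median 363) and between 700 and 1530 CPM in Pparg-/-epi mice (median 1210), with a log2FC of 1.57 (SE 0.30, adjusted p = 0.0046). Asprv1, the protease that processes filaggrin, had a log2FC of 0.85 (SE 0.15, adjusted p = 0.00298) without overlap. Kprp, a proline-rich protein of the same gene complex, had a log2FC of 0.23 (adjusted p = 0.524). Rptn, repetin, had a log2FC of 2.46 (SE 1.03, adjusted p = 0.129). Its WT values lay between 2.96 and 200 CPM (median 4.79, mean 58.15). Its Pparg-/-epi values lay between 183 and 581 CPM (median 261), with overlap.

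Of 25 transcription factors known to act on the epidermal differentiation complex, 4 were altered upward (Fosl1, Jun, Ehf and Elf3), 2 downward (Satb1 and Gata3) and 19 were not altered. The share of all genes altered was 5.19% upward and 5.08% downward. At an unadjusted p under 0.05, 11 of the factors were higher and 3 lower, again without a share of all genes to set them against. Jun, a subunit of AP-1, was between 92.8 and 128 CPM in WT mice (median 119) and between 143 and 238 CPM in Pparg-/-epi mice (median 175), with a log2FC of 0.69 (SE 0.13, adjusted p = 0.00487). Its partner Fosl1 had a log2FC of 2.32 (SE 0.59, adjusted p = 0.0181), with overlap. The ETS factor Ehf rose from a median of 33.2 to 210 CPM (log2FC 2.17, adjusted p = 0.0013) and Elf3, of the same family, from 0.929 to 6.29 CPM (log2FC 2.18, adjusted p = 0.0235). Satb1, a chromatin organiser, was between 48 and 114 CPM in WT mice (median 101) and between 21.2 and 42.2 CPM in Pparg-/-epi mice (median 32.0), a log2FC of -1.56 (SE 0.23, adjusted p = 0.000975). Klf4, a factor of terminal differentiation, had a log2FC of -0.04 (adjusted p = 0.951). Whether any of these factors acts on the members was not tested.

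Markers of the sampled tissue were abundant, with Krt5, Krt14, Krt1 and Krt10 medians from 2478 to 20295 CPM in WT mice. The summed suprabasal markers (Krt1, Krt10, Dsg1a and Dsc1) ranged from 10781 to 31404 CPM in WT mice and from 18379 to 36483 CPM in Pparg-/-epi mice. The lowest was WT replicate 2, the mouse with high Sprr1a and Sprr4. That mouse was also highest of the WT mice for summed hair markers, at 972 CPM, where WT mice ranged from 2.43 CPM and Pparg-/-epi mice from 94.6 to 2658 CPM. It was highest of the WT mice as well for the summed sebocyte (1703 CPM), adipocyte (105 CPM), endothelial (86.2 CPM), Langerhans cell (2457 CPM) and macrophage (278 CPM) markers, and lowest for basal keratinocyte markers (7233 CPM). Summed endothelial markers ranged from 3.21 to 86.2 CPM in WT mice (median 15.1) and from 16.6 to 131 CPM in Pparg-/-epi mice (median 69.6). Of 4 neutrophil markers only Cxcr2 was listed, between 0 and 2.88 CPM in WT mice and between 7.57 and 13.9 CPM in Pparg-/-epi mice. Of 3 markers of mucosal-type keratinocytes only Krt4 was listed, between 0.384 and 1.66 CPM and between 1.27 and 2.83 CPM. Summed fibroblast markers ranged from 1014 to 34533 CPM in WT mice and from 5324 to 11169 CPM in Pparg-/-epi mice, and skeletal muscle markers from 10.0 to 9059 CPM and from 8.48 to 354 CPM. Of 5 listed genes taken as sebocyte markers, 3 were altered downward (Awat1, Awat2 and Far2) and 1 upward (Krt79). Elovl3 was not altered, with a log2FC of -2.91 (adjusted p = 0.0637), so Krt79 went against all the others. Krt79 was between 45.7 and 1335 CPM in WT mice and between 1850 and 3513 CPM in Pparg-/-epi mice. The summed sebocyte markers, at most 1703 CPM in WT mice, ranged from 1852 to 3516 CPM in Pparg-/-epi mice. This sum mainly follows Krt79 and is therefore no measure of sebocytes. The part of these cells in the members' changes was not tested.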

How the data were processed

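Libraries were made by the authors with a poly(A)-selecting kit (KAPA mRNA HyperPrep) and sequenced as 75-base read pairs. Per the labels and the study's methods, the authors aligned reads with STAR 2.5.2b to mm10, excluded reads with low mapping quality or several mapping positions, and counted reads on refGene genes with featureCounts of Subread 1.5.1. The deposited table holds raw counts, with 12 library columns, 14533 genes and 2800 empty rows, which were left out. All listed genes pass 0.5 CPM in at least 6 libraries, and no further filter was applied. Columns were joined to samples by mouse name, and for replicates 11 and 12 by the study's list of libraries.

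Counts were scaled by TMM and compared with edgeR 4.0.16 (quasi-likelihood test, genotype as the only term) in R 4.3.3. The SE is the log2FC divided by the square root of F. CPM values use the TMM factors. Sums were fitted in a table with each subfamily as 1 row. The quasi-likelihood test stands in place of the study's likelihood ratio test, which was an alternative, as was DESeq2 1.42.0. The script was tested on simulated data. Alternatives also covered size factors, total counts, a mean of 10 counts or more, sex, RIN, age, name number, each sex alone and each library left out. Ages are those of the labels, which differ from the study's own list for some mice. One count was worth 0.052 to 0.106 CPM. Each library is 1 mouse.

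Per-mouse values were given for the members with the highest and lowest fold change and the highest level per length in each subfamily, for lone members and for members not altered. Members, lists and motifs were chosen with earlier results of these data known. Lengths and positions are the table's. The length of Sprr4 in the table, 231 bases, covers its coding part alone, so its level per length and its promoter window are not compared. Shared stretches came from GENCODE M21 transcripts, and promoters from RefSeq. Plots used Python 3.11.15 and matplotlib 3.10.9.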

Additional observations from a re-analysis of the deposited data

Results flagged for a closer look

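In 66 sets of 6 mice (29 members and 4 subfamily sums in each group), the gap between the most extreme mouse and its nearest neighbour was divided by the range of the 6, on log2 CPM. In 9 sets this exceeded Dixon's 95% limit, which chance passes in about 1 in 20 independent sets. These 66 sets are not independent, since they reuse the same mice and the sums contain their members. The count of 9 was therefore not tested against that rate. All 9 were in WT mice. WT replicate 2 stood apart as the highest mouse for Sprr1a (0.687) and the Sprr1 sum (0.662), and as the lowest for Lce1a2 (0.758), Lce1c (0.747), Lce1h (0.64) and the Lce1 sum (0.626). WT replicate 3 stood apart as the highest mouse for Sprr2f (0.73), Sprr2g (0.791) and Lce3d (0.646). The RIN of WT replicate 2 was 8.6, the highest of the WT mice, and that of WT replicate 3 was 6.1. The part of RNA quality in these values was not tested.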

How the results depend on the processing

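In no setting was a member altered downward with edgeR or DESeq2. The count altered upward was 19, between 17 and 22 in the settings over all 12 mice and in female mice, 1 in male mice alone (3 WT and 2 Pparg-/-epi mice), 11 among mice with name numbers from 222 on, and between 14 and 21 with 1 library left out. Of the 19, 14 were altered in all 12 of those fits. Of all genes, 11 were altered upward and 7 downward in male mice, and 294 and 357 in female mice. From name number 222 on, the counts over all genes were 258 and 273. In the settings over all 12 mice they were between 580 and 942 upward and between 622 and 845 downward. With 1 library left out they were between 512 and 1303 upward and between 570 and 946 downward. For the other cornified envelope genes, 1 was altered upward in male mice, and between 5 and 9 upward and 0 and 1 downward with 1 library left out. For the transcription factors, 1 was altered upward and 1 downward in female mice, 1 and 0 in male mice, 2 and 1 from name number 222 on, and between 3 and 5 upward and 1 and 2 downward with 1 library left out. The counts of all genes in the fits of both lists are those given above. With 1 library left out the log2FC of the sums was between 0.093 and 0.33 for Lce1, 2.40 and 3.10 for Lce3, 1.5 and 3.02 for Sprr1, and 2.66 and 3.41 for Sprr2, and the ratio differences were between 2.38 and 2.88 for Lce3 to Lce1, 2.71 and 3.29 for Sprr2 to Lce1, -1.05 and -0.12 for Sprr1 to Sprr2, and -0.53 and -0.25 for Lce3 to Sprr2. The Sprr2 sum moved to 3.91 in female mice and was 2.03 in male mice, and the Sprr1 sum was 1.14 and 2.70. WT replicate 3, the highest WT mouse for the Sprr2 sum (36.1 CPM), is male. WT replicate 2, the highest for the Sprr1 sum (1488 CPM), is female. Sex and these single mice therefore cannot be told apart here. Without the most abundant member of each subfamily the last 2 ratio differences reversed, to 1.43 and 0.84, and those of Lce3 to Lce1 and Sprr2 to Lce1 were 3.21 and 2.37. The log2FC of Lce1a2 reversed to -0.053 in female mice, and with 1 library left out it lay between -0.039 and 0.18, and that of Lce1l between -0.029 and 0.25. The cause of these changes was not tested. Fewer mice enter the fits of single sexes and name numbers.

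No paired analysis was possible because the groups share no replicate numbers (1 to 6 and 7 to 12), which number the libraries in turn. The WT mice were siblings, but the sources used here do not tell which mice are littermates, and a single name number (222) is held by 1 mouse of each group. In edgeR's test of whether the effect of genotype differed between sexes, 0 of 14533 genes passed at an adjusted p under 0.05. At an unadjusted p under 0.05, 741 of the 14533 passed, among them 5 of the 29 members (Sprr2a3, Sprr2d, Sprr1b, Lce1g and Lce3f). In each of these 5 the log2FC was lower in male mice, with a male minus female difference between -3.76 and -1.35.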
